A study of Mus musculus with 22 samples.

Results

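The 34 genes described here encode the enzymes of glycolysis and of the pentose phosphate pathway in the mouse, with a few enzymes that feed or regulate them. They were taken from the deposited table of expression values by matching gene symbols. The 34 symbols match 35 of the 55335 entries of that table, because 2 Ensembl identifiers carry the symbol Aldoa. ENSMUSG00000030695.16 is used for Aldoa throughout, since the other entry reached at most 0.184 FPKM in any library.

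The study lowered the histone variant H2A.Z in mouse embryos with small interfering RNAs and sequenced polyadenylated RNA by Smart-seq2, a full-length method for little starting material. There were 22 libraries, each of 15 pooled embryos: 4 control libraries at each of the 2-cell, morula and blastocyst stages, and 3, 3 and 4 H2A.Z knockdown (KD) libraries at the same stages. Both parents of the embryos were B6D2F1, with donor females 8 weeks old, and embryos were harvested 43 to 44 h (2-cell), 78 h (morula) or 94 h (blastocyst) after hCG. KD embryos received about 10 pL of siRNA at 20 µM, injected into zygotes. The labels do not state how the control embryos of these libraries were treated. The study reports that KD reduced blastocyst formation but not development to the morula. Whether the KD embryos harvested as blastocysts were a selected or delayed set was not tested. This limit applies to every comparison with KD blastocysts. The cDNA went through 16 to 18 preamplification cycles and was sequenced as read pairs of 150 bases. The labels call the replicates separate libraries and say no more, so p-values measure the spread between these libraries.

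Glycolysis splits glucose into pyruvate in a chain of steps: hexokinase traps glucose, phosphofructokinase commits it, aldolase and triose phosphate isomerase make triose phosphates, and the lower enzymes turn these into pyruvate with a gain of ATP. The pentose phosphate pathway branches off after the first step, yields NADPH in its oxidative arm and ribose phosphate for nucleotides, and returns sugars to glycolysis through transketolase and transaldolase. Mouse embryos depend on pyruvate and lactate in the first cleavages and take up and use more glucose from the morula stage on.

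The transcripts of H2A.Z itself check the labels. H2afz, which encodes H2A.Z, measured 1244, 1236, 905 and 1178 FPKM in the 2-cell control libraries and 415, 139 and 112 in the 2-cell KD libraries. It stood at 1158, 1336, 1511 and 1421 FPKM in control morulae and 30.3, 25.7 and 29.0 in KD morulae. In blastocysts it was 2656, 2431, 1945 and 2055 FPKM in control and 64.2, 67.2, 53.2 and 57.6 in KD libraries. Every KD library lay below every control library of its stage, and 2-cell KD replicate 1 kept the highest level among KD libraries. At the 2-cell stage H2afz differed by -2.53 (standard error 0.38, unadjusted p = 4.48e-05) and had an adjusted p of 0.544, so limma did not call the lowered gene itself at that stage. H2afv, the other gene for H2A.Z, was lower too, at 9.90 to 12.9 FPKM in KD against 92.5 to 113 in control morulae and at 10.6 to 19.9 against 49.9 to 63.5 in blastocysts. At the 2-cell stage H2afv lay at 83.7 to 97.6 FPKM in KD and 96.8 to 118 in control libraries, which overlap.

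Levels are FPKM as deposited, that is, fragments scaled for transcript length and for the mapped fragments of the library, and values are listed in the order of replicate numbers: 1, 2, 4 and 5 (2-cell control), 1, 2 and 4 (2-cell KD), 1, 2, 7 and 8 (morula control), 1, 2 and 6 (morula KD), and 1, 4, 5 and 6 (both blastocyst groups). Reads behind a value are not given, and so counting error could not be computed. A relative depth was taken from low values of FPKM times gene length in single-exon genes, with the most frequent value as the step. It was 18.2 to 27.5 in control and 20.9 to 27.3 in KD 2-cell libraries. It was 20.9 to 28.5 and 20.2 to 27.7 in control and KD morulae, and 15.0 to 22.0 and 17.1 to 21.4 in control and KD blastocysts, so the groups of a stage overlap in depth. Of the low values, 9.28 to 20.9% lay within 0.02 of a whole step, where that tolerance alone gives 4%. Part of this excess is built in, because the step was set at the most frequent value. The depth is therefore a rough guide, and numbers of reads were not recovered. Some libraries stood apart for these genes. Of the 20 pathway genes tested at the 2-cell stage, 19 had a higher mean in control replicates 4 and 5 than in replicates 1 and 2, by a median of 0.42 on the log2 scale, while 47.4% of all genes tested were higher there. Relative depth was also higher in control replicates 4 and 5 (27.5 and 27.4) than in replicates 1 and 2 (23.1 and 18.2), and its part in those levels was not tested.

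Summed over the 34 genes, the level rose with development in control embryos, from 514 ± 65.8 FPKM (SD, n = 4) in 2-cell embryos to 1185 ± 31.7 (SD, n = 4) in morulae and 1750.4 ± 193 (SD, n = 4) in blastocysts. The net rise to the morula was close to that of Fbp2, whose mean went from 0.724 to 655 FPKM. Other genes moved in both directions. The means of Taldo1, Pgam1 and Aldoa rose from 33.0 to 143, 27.4 to 127 and 15.9 to 99.0 FPKM. Those of Ldhb and Bpgm fell from 183 to 3.07 and from 79.7 to 1.20 FPKM. In blastocysts Fbp2 averaged 725 FPKM, so most of the later rise lay in other genes. A few genes made up most of each sum. Ldhb held 35.6% and Bpgm 15.5% of the sum in 2-cell embryos. Fbp2 held 55.3% in morulae, ahead of Taldo1 with 12.1%, Pgam1 with 10.7% and Aldoa with 8.35%. In blastocysts Fbp2 held 41.4%, followed by Aldoa with 12.5% and Gapdh with 11.5%. The KD sums were 479 ± 13.7 (SD, n = 3), 1044 ± 104 (SD, n = 3) and 1589 ± 46.5 FPKM (SD, n = 4) at the same stages, and the control and KD ranges overlapped at each stage. The FPKM summed over all genes rose as well, from 423915 to 481717 in 2-cell, 572000 to 599407 in morula and 646290 to 722576 in blastocyst controls, and was 439787 to 478460, 604910 to 616784 and 589520 to 645717 in the KD libraries of these stages. The sums given here are not scaled for these totals, and FPKM are not amounts per embryo.

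Each comparison was tested with limma on log2(scaled FPKM + 1), with p-values adjusted by the Benjamini-Hochberg method over all genes tested. A gene passed with an adjusted p under 0.05, and a gene that passed with an absolute log2 fold change above 1 is called a DEG. To be tested, a gene had to reach an FPKM of 1 in 3 or more libraries of a KD comparison, or in 4 or more of the 12 control libraries for the stages. Hk1, Pfkm, Pfkp, Pfkfb4, Aldoc and Eno2 met this in 0 comparisons, and Pfkl met it only for KD against control at the 2-cell stage.

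Control embryos were compared between stages to show the pathway in development. From 2-cell embryos to morulae, 27 of the 34 genes were tested, of which 11 passed as higher (background over all 13883 genes tested: 42.0%) and 10 as lower (background 39.5%). Among them 9 were DEGs upward, where all genes gave 29.3%, and 8 were DEGs downward, where all genes gave 29.9%. The median log2 fold change was 0.03 for the pathway genes and 0.08 for all genes. From morulae to blastocysts, 16 of the 27 tested passed as higher (background 24.7%) and 2 as lower (background 22.6%). Upward DEGs numbered 13, beside 12% of all genes, and 1 was a DEG downward, beside 9.72%. The median was 0.74 for the pathway genes and -0.00 for all genes. The counts describe the genes that passed the filter, and a gene kept only through the stages where it is high was more likely to differ: Hk2, Pfkfb2, Pfkfb3, Eno3, Tkt and Ldhc were under 1 FPKM in every control library of either the 2-cell or the morula stage, Ldhb in every control blastocyst, and Pgm1 in every control library before the blastocyst. The morula control libraries serve in both stage comparisons, and the control libraries of a stage also serve in its KD comparison, so values from these comparisons are set side by side and no relation between them is computed.

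Knockdown was compared with control within each stage. At the 2-cell stage, limma called 0 of the 20 pathway genes tested and 0 of all 12160 genes (0%). At an unadjusted p under 0.05 there were 3 pathway genes, Gapdh (-0.47 on the log2 scale), Pgam1 (-0.37) and Pgd (-0.73), all lower in KD embryos, against 5.76% of all genes. Leaving out KD replicate 1 gave 3 calls and leaving out control replicate 2 gave 1 among all genes, with 0 pathway genes in either. The median log2 fold change at the 2-cell stage was -0.16 for the 20 pathway genes, of which 14 lay below 0. It was 0.00 for all genes, of which 5994 of 12160 lay below 0. Control replicates 4 and 5, where most of these genes were higher, are 2 of 4 control libraries. Of the 3 KD libraries, 1 has a number in that range, and the part of this imbalance in the median was not tested. In morulae, 23 were tested, of which 0 passed as higher (background 4.22%) and 1 as lower (background 9.05%). This background of 464 higher and 995 lower genes depends on single libraries. Leaving out each in turn gave from 140 and 412 (without KD replicate 2) to 558 and 1186 (without control replicate 1). The gene that passed, Eno1, was a DEG; all genes gave 2.59% DEGs downward and 1.00% upward. Limma found an unadjusted p under 0.05 for 3 higher and 4 lower pathway genes in morulae, beside 12.8% and 17.7% of all genes. In blastocysts, 24 were tested, of which 8 passed as lower (background 19.8%) and 1 as higher (background 16.7%). Of the 8, Pfkfb1 and Bpgm (0 and 2 KD libraries at 1 FPKM or more) met the minimum of 3 only through the control libraries, where they are high, so that the filter favoured a fall. Pgk1, Tpi1, Eno3 and Pgm2 were DEGs downward, beside 7.76% of all genes, and 0 were DEGs upward, beside 6.10%. With a pseudocount of 0.1, limma gave -1.02 for both Pfkfb1 and Bpgm (adjusted p = 0.0166 and 0.00685), so both were DEGs too. All genes then gave 2479 DEGs of 11828 tested. The median log2 fold change in blastocysts was -0.27 for the 24 pathway genes and 0.00 for all genes; in morulae the medians were -0.04 and 0.02. Whether the KD effect itself differed between the later stages was tested as an interaction: 5 of 25 pathway genes passed with a more negative effect in blastocysts (background 6.30%) and 0 with a more positive one (background 5.43%), where the unadjusted p was under 0.05 for 1, beside 13.2% of all genes.

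**Figure D1:**
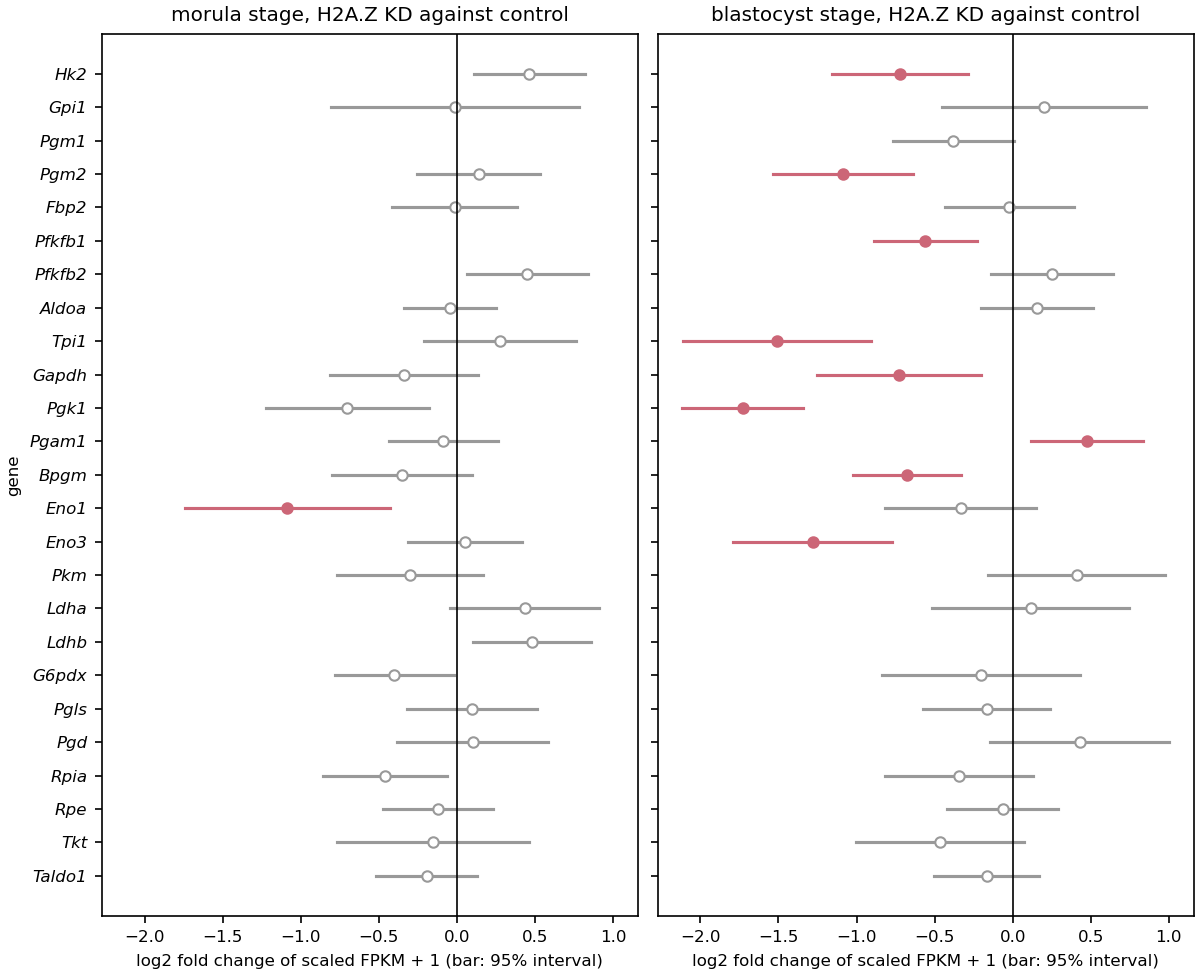
Log2 fold changes of H2A.Z KD against control for the pathway genes tested in morulae (left) and blastocysts (right), ordered by role; bars are 95% intervals from limma and filled points passed at an adjusted p under 0.05. Eno1 passed in morulae at -1.09, and the 9 genes that passed in blastocysts run from -1.73 (Pgk1) to 0.48 (Pgam1).

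Cell type markers place the libraries. Oocyte genes (Gdf9, Bmp15, Zp3, Oosp1, Nlrp5) and 2-cell genes such as Zfp352 were highest in the 2-cell libraries (Zfp352 was also higher in KD than in control blastocysts, with 1.57, standard error 0.29, adjusted p = 0.00156, and was tested there only through the KD libraries; 2.88 with a pseudocount of 0.1), and 5 of 6 trophectoderm genes tested passed as higher from morula to blastocyst (Tfap2c as lower). The 5 genes of the 2-cell list summed to 0.291 to 0.964 FPKM in control and 3.08 to 14.0 in KD blastocysts, without overlap. In morulae they summed to 1.46 to 6.03 and 4.50 to 9.18 FPKM, with overlap. The 7 trophectoderm markers summed to 999, 1477, 1312 and 990.0 FPKM in control blastocysts and to 584, 741, 784 and 604 in KD blastocysts, a fall without overlap that runs beside the lower pathway genes of the same libraries. Krt18, the most abundant of them, was lower in KD blastocysts (-1.02 on the log2 scale, adjusted p = 0.00126), as was Elf5 (-1.24, adjusted p = 0.000507; -3.08 with a pseudocount of 0.1), which was tested only through the control libraries where it is high, while Tfap2c was higher (0.96, adjusted p = 0.00675) and Cdx2, Gata3, Eomes and Krt8 did not pass. None of the 7 was at 0 in every library of a blastocyst group. The 5 inner cell mass markers summed to 127, 138, 143 and 171 FPKM in control and 46.7, 40.1 and 55.2 in KD morulae, where Nanog, the most abundant, was the gene that passed (-2.23, adjusted p = 0.00645); Sox2 and Esrrb did not reach the filter there. In blastocysts they summed to 114, 136, 223 and 136 and 141, 156, 286 and 201 FPKM, with Klf4 higher in KD (0.61, adjusted p = 0.0310; lost with FPKM as deposited, adjusted p = 0.0569, and without control replicate 4, 5 or 6 or KD replicate 5 or 6, 0.45 to 0.63, adjusted p from 0.0594 to 0.0958). Whether these shifts have a part in the pathway results was not tested, and in pooled whole embryos fewer cells of a type and less RNA per cell cannot be told apart. Primitive endoderm genes reached at most 37.1 FPKM in sum (most abundant Gata6 in the later stages). Of 11 cumulus or granulosa markers only Amhr2 and, in 2-cell embryos, Tnfaip6 averaged at least 1 FPKM, and Fshr and Ptx3 were at 0 in each group; the 6 sperm markers summed to at most 1.77 FPKM. Blood markers were low, with the Hba-a1 mean between 1.27 and 5.67 FPKM and Hbb-bs and Hbb-bt at 0 in each group, although Hba-a1 and Hba-a2 passed as higher in KD morulae (1.20 and 1.13) and blastocysts (0.80 and 0.61). Both morula calls were lost without KD replicate 1 or 2 (adjusted p from 0.0527 to 0.0721). In blastocysts Hba-a2 was at 1 FPKM or more in 1 control and 4 KD libraries, so the filter favoured a rise, and its call was lost without control replicate 4 or 5 or KD replicate 4 or 6 (0.50 to 0.61, adjusted p from 0.0516 to 0.0787).

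Hexokinase, the entry of glucose, was represented by Hk2 (ENSMUSG00000000628.10, chromosome 6, 82725025 to 82774454). Its control values were 0.284, 0.480, 0.389 and 0.415 FPKM in 2-cell embryos, 4.35, 4.22, 4.60 and 5.05 in morulae and 10.7, 14.4, 8.71 and 11.4 in blastocysts. The stages do not overlap, and Hk2 rose at each step, by 1.92 (standard error 0.17, adjusted p = 4.53e-08) and then by 1.11 (standard error 0.17, adjusted p = 6.63e-05) on the log2 scale. The KD libraries had 0.657, 0.378 and 0.657 FPKM in 2-cell embryos, 6.41, 5.48 and 6.52 in morulae and 7.18, 6.77, 6.60 and 4.93 in blastocysts. KD morulae therefore lay above every control morula and KD blastocysts below every control blastocyst. Against control, limma gave 0.47 (standard error 0.16, adjusted p = 0.0819) in morulae, which did not pass (with a covariate for the lower and higher replicate numbers it did, 0.50, adjusted p = 0.0342), and -0.72 (standard error 0.20, adjusted p = 0.0140) in blastocysts, which did. The interaction was -1.22 (standard error 0.26, adjusted p = 0.00575), so the effects differed between the stages. Hk1, the hexokinase of most adult tissues, stayed at 0.00762 to 0.0612 FPKM in 2-cell embryos, 0.121 to 1.05 in morulae and 0.00832 to 0.389 in blastocysts over both groups and did not reach the filter.

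Gpi1 converts glucose phosphate to fructose phosphate. Its control levels were 5.10, 3.96, 4.59 and 8.89 FPKM in morulae and 9.01, 25.8, 22.5 and 20.7 in blastocysts, after 2.00 to 4.26 in 2-cell embryos. Blastocyst replicate 1 was the lowest of its stage and lay just above the highest morula, replicate 8; the rise was 1.57 (standard error 0.28, adjusted p = 0.000285). In KD blastocysts Gpi1 ranged from 11.1 to 30.6 FPKM, overlapping control, with replicate 1 again lowest. Pgm1, the phosphoglucomutase that links glycogen to glycolysis, was near the lower end of the range until the blastocyst: 0.0975, 0.198, 0.798 and 0.463 FPKM, 0.0907, 0.116, 0.386 and 0.898 and 11.1, 15.2, 17.8 and 12.8 in the 3 control groups in order. Only blastocysts were above 1, and the rise from morulae was 3.43 (standard error 0.20, adjusted p = 6.17e-09). KD blastocysts had 8.15, 12.6, 12.1 and 9.64 FPKM, partly within the control range, and did not pass (-0.38, adjusted p = 0.114).

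Pgm2 (ENSMUSG00000029171.12, chromosome 5, 64092950 to 64128351) belongs to the same family and acts mainly on pentose phosphates, which it feeds into the nonoxidative arm. Controls measured 2.47, 3.07, 6.26 and 6.96 FPKM in 2-cell embryos, 2.78, 2.71, 2.702 and 2.55 in morulae and 12.3, 18.6, 16.3 and 11.5 in blastocysts. The 4 control morulae were nearly equal and every blastocyst lay well above them. The rise was 2.04 (standard error 0.22, adjusted p = 3.06e-06), after a change of -0.66 (standard error 0.22, adjusted p = 0.0128) with overlap between 2-cell embryos and morulae. In limma that earlier change did not pass with FPKM as deposited (-0.54, adjusted p = 0.0610) or quantile normalization (-0.42, adjusted p = 0.118). In KD embryos Pgm2 was 2.21, 2.65 and 3.68 FPKM in morulae and 4.30, 6.30, 6.28 and 8.62 in blastocysts. KD morulae surrounded the control values, whereas every KD blastocyst stayed below every control blastocyst and above every control morula. Limma gave 0.14 (standard error 0.18, adjusted p = 0.631) in morulae and -1.09 (standard error 0.21, adjusted p = 0.00172) in blastocysts, with an interaction of -1.26 (standard error 0.28, adjusted p = 0.00787).

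Phosphofructokinase, the committing step, had low transcript levels. Pfkl, the liver type, measured 1.12, 0.893, 2.86 and 2.22 FPKM in 2-cell control and 1.07, 0.897 and 2.33 in 2-cell KD libraries, with replicate 4 highest in each group. It then stayed under 1 FPKM, at 0.0616 to 0.623 in morulae and 0.191 to 0.650 in blastocysts over both groups. Pfkp, the platelet type, was 0.709 to 1.40 FPKM in 2-cell embryos, 0.0207 to 0.415 in morulae and 0.0111 to 0.332 in blastocysts. Pfkm, the muscle type, did not exceed 0.158 FPKM in any library. The sum of the 3 genes in control libraries was 1.90, 1.78, 4.41 and 3.20 FPKM in 2-cell embryos, 0.926, 0.371, 0.502 and 0.309 in morulae and 0.359, 0.881, 0.879 and 0.663 in blastocysts. Each morula and blastocyst sum is under every 2-cell sum; none of the 3 genes reached the filter of the stage comparisons. Without the filter all 3 passed as lower from 2-cell embryos to morulae (Pfkl -1.13, Pfkp -0.77 and Pfkm -0.11; adjusted p = 0.000516, 0.000182 and 0.0121).

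Fbp2, the muscle-type fructose bisphosphatase that runs the reverse of the phosphofructokinase step, was the most abundant pathway gene after the 2-cell stage. Control values were 0.480, 1.01, 0.713 and 0.693 FPKM in 2-cell embryos, 592, 649.8, 666 and 712 in morulae and 741, 775, 724 and 661 in blastocysts. The gene went from at or under about 1 FPKM to at least 592 FPKM in every control library, a change of 8.47 (standard error 0.16, adjusted p = 1.88e-14) on the log2 scale, and then changed by 0.14 (standard error 0.16, adjusted p = 0.532). KD libraries had 524, 552 and 724 FPKM in morulae and 810.3, 792, 576 and 686 in blastocysts. They overlap the controls at both stages, with fold changes of -0.01 and -0.02 (adjusted p = 0.968 and 0.944).

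Pfkfb1 to Pfkfb4 encode enzymes that make and remove fructose bisphosphate in its regulatory form, an activator of phosphofructokinase. Pfkfb3 measured 1.04, 1.14, 2.30 and 2.13 FPKM in 2-cell controls, 0.544, 0.236, 0.285 and 0.162 in morulae and 0.0144, 0.0342, 0.0149 and 0.0367 in blastocysts. Its change to the morula was -1.08 (standard error 0.13, adjusted p = 2.53e-06), and blastocyst controls were near 0. Pfkfb2 went the other way, from 0.0974, 0.289, 0.464 and 0.167 FPKM in 2-cell embryos to 1.75, 1.64, 1.35 and 1.61 in morulae, without overlap (1.00, standard error 0.13, adjusted p = 4.21e-06), and was 0.941 to 1.89 in blastocysts. Pfkfb1 was 1.20, 1.68, 1.68 and 1.56 FPKM in control and 0.454, 0.934, 0.665 and 0.793 in KD blastocysts. All 4 KD libraries lay below all 4 controls, and limma gave -0.56 (standard error 0.15, adjusted p = 0.0123). The gene passed the filter only through the controls, as all KD blastocysts were under 1 FPKM, so a lower KD level was favoured. KD morulae, at 0.544, 0.518 and 0.535 FPKM against 0.762, 0.848, 1.01 and 1.09 in controls, also lay lower but did not reach the filter. Pfkfb4 kept to 0 to 0.0675 FPKM in 2-cell embryos, 0.291 to 1.23 in morulae and 0.0855 to 0.925 in blastocysts.

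Aldoa, the aldolase that splits fructose bisphosphate, measured 9.57, 13.7, 21.7 and 18.7 FPKM in 2-cell controls, 105, 100.2, 91.7 and 98.6 in morulae and 157, 245, 274 and 196 in blastocysts. Each stage lay above the one before in every library, with changes of 2.46 (standard error 0.19, adjusted p = 8.88e-09) and 1.09 (standard error 0.19, adjusted p = 0.000200). KD libraries were at 81.9 to 93.5 FPKM in morulae and 205 to 287 in blastocysts and did not pass. Aldoc, the brain type, stayed at 0 to 0.847 FPKM.

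Tpi1 (ENSMUSG00000023456.15, chromosome 6, 124810586 to 124814296) interconverts the triose phosphates. Control values were 8.16, 9.87, 13.7 and 10.1 FPKM in 2-cell embryos, 6.35, 5.21, 6.59 and 3.73 in morulae and 83.0, 90.9, 80.8 and 53.2 in blastocysts. The gene fell to the morula (-0.98, standard error 0.20, adjusted p = 0.000343) and then rose to the blastocyst by 3.57 (standard error 0.20, adjusted p = 4.43e-09). KD values were 9.20, 5.04 and 4.92 FPKM in morulae and 12.7, 30.9, 34.9 and 31.5 in blastocysts. KD morulae overlapped the controls, with replicate 1 the highest of all. In blastocysts every KD library lay below every control, and KD replicate 1 was the lowest at 12.7 FPKM. The KD effect was 0.27 (standard error 0.22, adjusted p = 0.427) in morulae and -1.51 (standard error 0.28, adjusted p = 0.00139) in blastocysts; the interaction, -1.82 (standard error 0.39, adjusted p = 0.00630), was the most negative among the pathway genes.

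**Figure D2:**
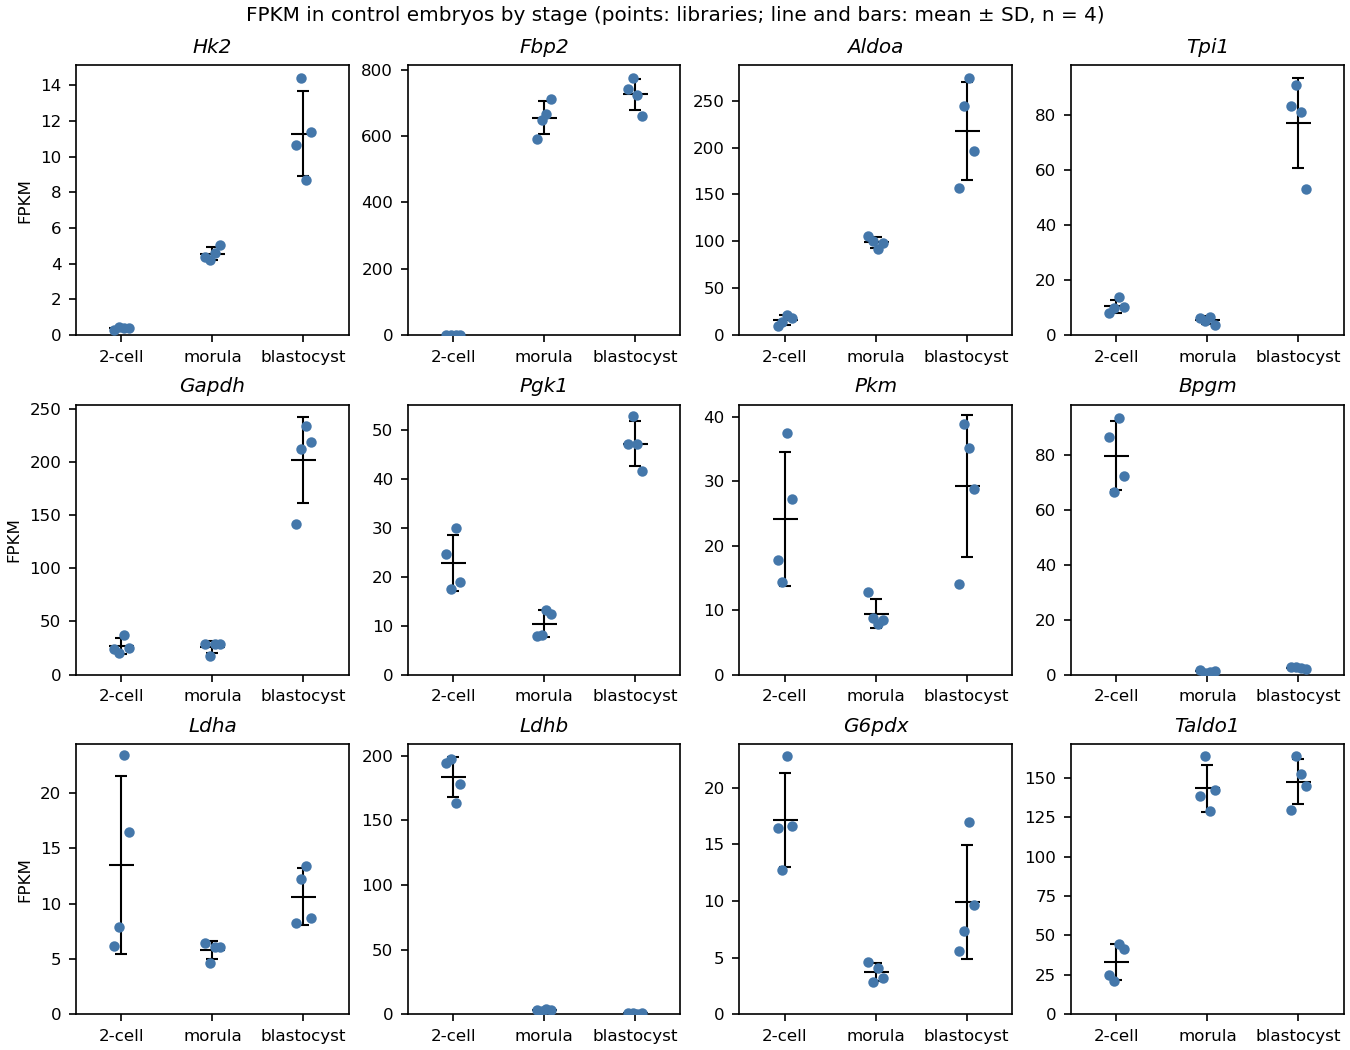
FPKM of 12 pathway genes, picked after their values were seen, in the 4 control libraries of each stage (points), with the mean and SD (line and bars); each panel has its own axis from 0. Ldhb and Bpgm are high in 2-cell embryos only, Fbp2 appears in morulae, and Tpi1 and Gapdh rise in blastocysts.

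Gapdh, which oxidizes triose phosphate and served the study as its reference gene for qPCR, measured 24.0, 20.7, 37.3 and 25.3 FPKM in 2-cell controls, 28.5, 17.6, 28.5 and 28.5 in morulae and 142, 212, 234 and 219 in blastocysts. Morulae and 2-cell embryos overlap, and every blastocyst lies far above both; the changes were -0.21 (standard error 0.19, adjusted p = 0.302) and 2.91 (standard error 0.19, adjusted p = 1.50e-08). KD libraries had 17.9, 15.5 and 20.3 FPKM in 2-cell embryos, 15.3, 17.7 and 21.9 in morulae and 63.1, 129.7, 171 and 141 in blastocysts. KD 2-cell values were all below the controls, and the later stages overlap, since the lowest control blastocyst (replicate 1) lies within the KD range. KD against control gave -0.47 (standard error 0.20, adjusted p = 0.828), -0.34 (standard error 0.21, adjusted p = 0.310) and -0.73 (standard error 0.24, adjusted p = 0.0325) at the 3 stages in order. The blastocyst call of Gapdh rests on single libraries: without control replicate 4, 5 or 6, or without KD replicate 1, the adjusted p lay between 0.0603 and 0.0737, and the log2 fold change without KD replicate 1 was -0.46. With all libraries, limma also lost the call with FPKM as deposited (-0.74, adjusted p = 0.0528), quantile normalization (-0.64, adjusted p = 0.0966) and no filter (adjusted p = 0.135).

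Pgk1 (ENSMUSG00000062070.12, chromosome X, 106187100 to 106203699) makes the first ATP of glycolysis. In controls it was 24.7, 17.5, 30.0 and 19.0 FPKM in 2-cell embryos, 8.001, 8.19, 13.2 and 12.4 in morulae and 47.3, 52.9, 47.2 and 41.6 in blastocysts. All morulae were below all 2-cell libraries and all blastocysts above both; the changes were -1.22 (standard error 0.21, adjusted p = 8.20e-05) and 2.09 (standard error 0.21, adjusted p = 1.52e-06). KD libraries measured 24.1, 23.8 and 29.3 FPKM in 2-cell embryos, 5.27, 4.62 and 6.38 in morulae and 13.2, 15.5, 11.2 and 14.3 in blastocysts. The 2-cell groups overlap, while KD was below control in every morula and every blastocyst library. Limma gave -0.70 (standard error 0.24, adjusted p = 0.0747) in morulae, short of the threshold, though it passed without control replicate 1, with FPKM as deposited and with a covariate for the lower and higher replicate numbers, and -1.73 (standard error 0.18, adjusted p = 3.66e-05) in blastocysts, the largest KD change among the pathway genes. The interaction was -1.06 (standard error 0.30, adjusted p = 0.0296), and it did not pass when any of 7 single libraries was left out (morula control 1 or 2, morula KD 1 or 6, blastocyst control 1 or 4, blastocyst KD 5; log2 values -1.10 to -0.90, adjusted p from 0.0538 to 0.0796).

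Pgam1, the phosphoglycerate mutase of most tissues, peaked in morulae: 24.0, 23.4, 35.6 and 26.6 FPKM in 2-cell controls, 163, 134, 102 and 109 in morulae and 48.7, 73.1, 80.3 and 71.8 in blastocysts. The 3 stages do not overlap, and the changes were 2.00 (standard error 0.15, adjusted p = 1.10e-08) and -0.89 (standard error 0.15, adjusted p = 0.000223). KD blastocysts had 91.2, 72.2, 112 and 104 FPKM, of which replicate 4 lay within the control range and the others above it. Pgam1 was the pathway gene that passed as higher, with 0.48 (standard error 0.17, adjusted p = 0.0392). That call was lost when control replicate 1, 4 or 6 or KD replicate 1, 5 or 6 was left out, with log2 fold changes of 0.37 to 0.49 and adjusted p from 0.0681 to 0.108. KD morulae were at 89.8 to 121 FPKM.

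Bpgm, which diverts the substrate of Pgk1 into another bisphosphoglycerate, was a 2-cell transcript. Controls had 86.4, 66.6, 93.6 and 72.2 FPKM in 2-cell embryos, 1.54, 0.770, 1.15 and 1.32 in morulae and 2.65, 2.66, 2.44 and 2.09 in blastocysts. The change to the morula was -5.35 (standard error 0.16, adjusted p = 3.90e-13) and that to the blastocyst 0.65 (standard error 0.16, adjusted p = 0.00388). KD 2-cell embryos kept 74.8, 58.8 and 87.5 FPKM, and KD blastocysts had 0.992, 1.35, 1.33 and 0.983. The 2-cell groups overlap, and every KD blastocyst lay below every control blastocyst (-0.68, standard error 0.16, adjusted p = 0.00592). With 2 KD libraries at 1 FPKM or more, Bpgm met the minimum of 3 in blastocysts only through the controls, which favoured a fall.

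Enolase makes phosphoenolpyruvate. Eno1 (ENSMUSG00000063524.13, chromosome 4, 150236721 to 150248879), the common form, measured 5.53, 2.39, 13.5 and 10.6 FPKM in 2-cell controls, 14.1, 14.1, 21.1 and 23.1 in morulae and 42.997, 45.1, 98.3 and 53.9 in blastocysts. It was higher in every library of each later stage, by 1.12 (standard error 0.36, adjusted p = 0.0106) and 1.61 (standard error 0.36, adjusted p = 0.00190); without 2-cell control replicate 2, the lowest, the first change was 0.70 (adjusted p = 0.0419). KD libraries had 3.99, 5.03 and 4.78 FPKM in 2-cell embryos, 5.43, 5.80 and 11.3 in morulae and 43.8, 49.0, 48.1 and 38.2 in blastocysts. Every KD morula lay below every control morula, KD replicate 6 being the highest of the 3, and blastocysts overlapped. In morulae, limma gave -1.09 (standard error 0.30, adjusted p = 0.0366); this call was lost without control replicate 7 or 8 or without KD replicate 1 or 2 (log2 fold changes -0.99 to -0.88, adjusted p from 0.0834 to 0.142). In blastocysts the value was -0.33 (standard error 0.22, adjusted p = 0.265) and did not pass, and the interaction, 0.72 (standard error 0.39, adjusted p = 0.250), did not pass either.

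Eno3 (ENSMUSG00000060600.15, chromosome 11, 70657202 to 70662513), the muscle enolase, was low until the blastocyst. Control values were 0.395, 0.310, 0.717 and 0.0524 FPKM in 2-cell embryos, 1.06, 1.12, 1.04 and 1.06 in morulae and 7.17, 4.49, 5.64 and 3.38 in blastocysts. The stages are separate, with changes of 0.56 (standard error 0.21, adjusted p = 0.0202) and 1.51 (standard error 0.21, adjusted p = 2.51e-05); the first did not pass without 2-cell control replicate 5 (0.43, adjusted p = 0.0829). KD morulae had 0.695, 1.26 and 1.23 FPKM and KD blastocysts 1.29, 1.94, 1.78 and 0.993. The morula groups overlap, and every KD blastocyst lay below every control blastocyst, with replicate 6 lowest in both groups. The KD effect was 0.05 (standard error 0.16, adjusted p = 0.864) in morulae and -1.28 (standard error 0.23, adjusted p = 0.00136) in blastocysts, and the interaction was -1.34 (standard error 0.30, adjusted p = 0.00787). Eno2, the neuronal enolase, did not reach 1 FPKM in any library.

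Pkm, pyruvate kinase, closes glycolysis. It measured 17.8, 14.4, 37.5 and 27.2 FPKM in 2-cell controls, 12.8, 8.77, 7.79 and 8.47 in morulae and 14.0, 39.0, 35.2 and 28.9 in blastocysts. Morulae were lowest in every library (-1.36, standard error 0.26, adjusted p = 0.000206), and the rise to blastocysts was 1.45 (standard error 0.26, adjusted p = 0.000333), with blastocyst replicate 1 close to the highest morula. KD libraries were at 11.99, 17.5 and 17.6 FPKM, 6.07, 5.31 and 9.37 and 27.7, 27.7, 52.4 and 44.0 at the 3 stages in order. They overlap the controls at each stage, and KD against control gave -0.46, -0.30 and 0.41 on the log2 scale (adjusted p = 0.828, 0.366 and 0.243).

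**Figure D3:**
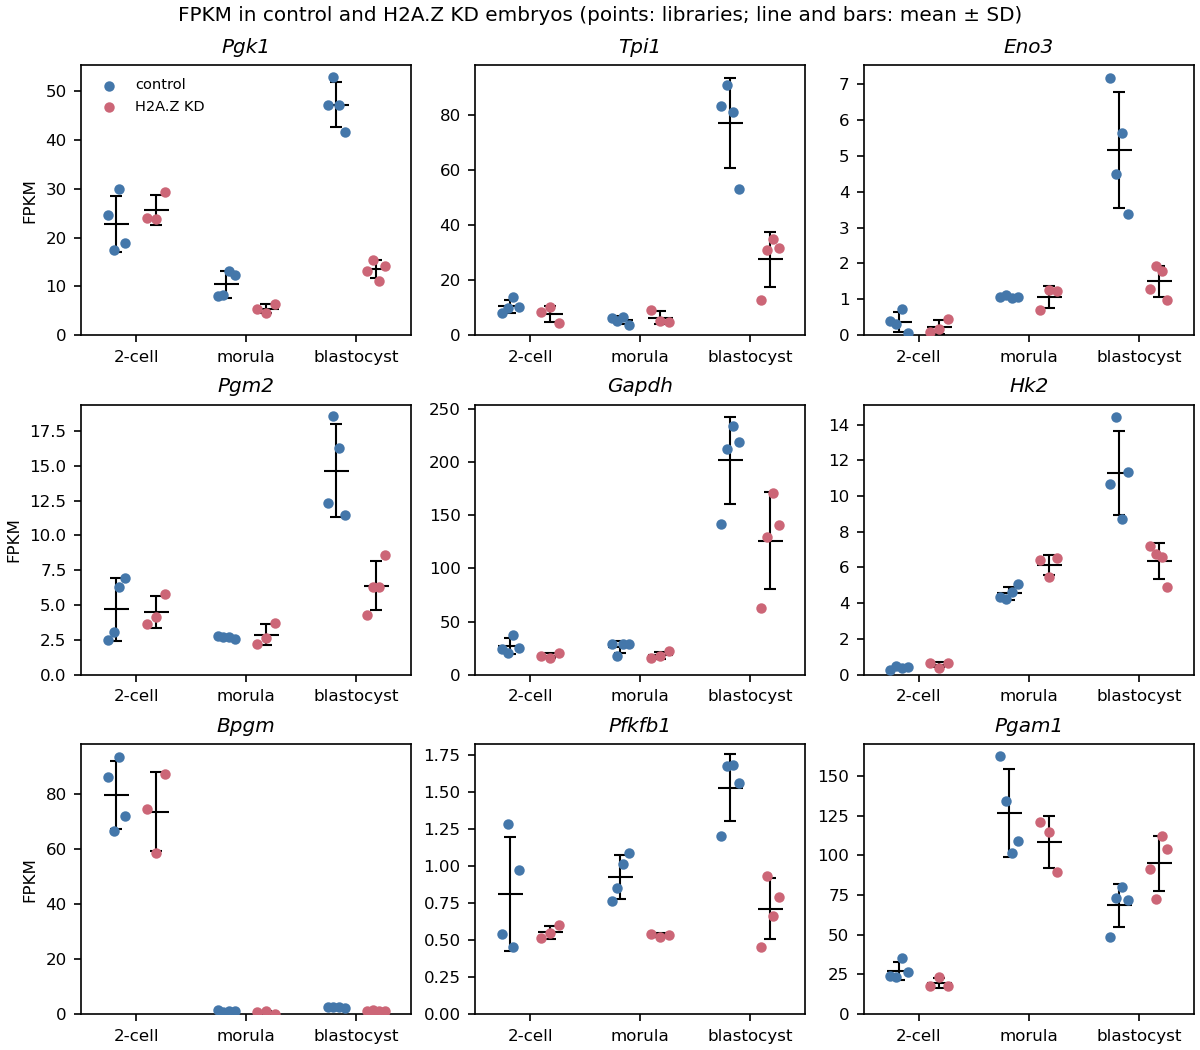
FPKM of the 9 pathway genes that passed in blastocysts, in control (blue) and H2A.Z KD (red) libraries of each stage; points are libraries, the line and bars the mean and SD, and each panel has its own axis from 0. For Pgk1, Tpi1, Eno3, Pgm2, Hk2, Bpgm and Pfkfb1 every KD blastocyst library lies below every control blastocyst library.

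Lactate dehydrogenase interconverts pyruvate and lactate, and the levels of its genes differ between stages. Ldhb, the heart-type subunit, was 194, 197, 164 and 178 FPKM in 2-cell controls, 2.97, 2.54, 3.84 and 2.93 in morulae and 0.540, 0.835, 0.435 and 0.601 in blastocysts. Every library of a later stage lay below every library of the stage before, with log2 changes of -5.66 (standard error 0.16, adjusted p = 2.69e-13) and -1.32 (standard error 0.16, adjusted p = 1.06e-05). Ldhc, the testis form, was 5.30, 6.47, 8.19 and 6.08 FPKM in 2-cell controls and 0.273, 0.152, 0.183 and 0.308 in morulae (-2.71, standard error 0.12, adjusted p = 2.61e-11), and 0.0900 to 0.319 in blastocysts. Ldha, the muscle-type subunit, had 6.18, 7.89, 23.5 and 16.4 FPKM in 2-cell controls, 6.40, 4.63, 6.05 and 6.06 in morulae and 8.20, 12.2, 13.4 and 8.69 in blastocysts. Its 2-cell replicates 4 and 5 were far above 1 and 2, of which replicate 1 lay within the morula range, and the changes were -1.08 (standard error 0.28, adjusted p = 0.00226) and 0.74 (standard error 0.28, adjusted p = 0.0386). The second did not pass without any 1 of 7 control libraries (morula 1, 2, 7 or 8, blastocyst 1, 4 or 5; 0.66 to 0.79, adjusted p from 0.0517 to 0.101), nor with FPKM as deposited (0.76, adjusted p = 0.0639), quantile normalization (0.66, adjusted p = 0.105) or no filter (adjusted p = 0.123).

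None of the lactate dehydrogenase genes passed between KD and control. Ldhb was 209, 189 and 193 FPKM in KD 2-cell embryos, 5.04, 4.24 and 3.66 in KD morulae and 1.38, 0.845, 0.413 and 1.38 in KD blastocysts. The morula values lie at and above the upper end of the controls (0.48, standard error 0.17, adjusted p = 0.0882), and the gene did not reach the filter in blastocysts. Ldha was 7.44, 7.60 and 13.0 FPKM, 9.29, 4.91 and 8.93 and 13.2, 15.9, 5.84 and 12.9 in the KD libraries of the 3 stages, overlapping control each time (-0.29, 0.43 and 0.12 on the log2 scale). Ldhc was 5.29 to 8.33 FPKM in KD 2-cell embryos and at most 0.588 later.

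The oxidative arm of the pentose phosphate pathway starts with G6pdx, glucose phosphate dehydrogenase, its rate-controlling enzyme. Control values were 16.4, 12.8, 22.9 and 16.6 FPKM in 2-cell embryos, 4.59, 2.84, 4.09 and 3.23 in morulae and 5.57, 7.38, 17.0 and 9.66 in blastocysts. Every morula lay below every 2-cell and blastocyst library; the changes were -2.10 (standard error 0.23, adjusted p = 5.97e-07) and 1.11 (standard error 0.23, adjusted p = 0.000973). KD embryos had 14.2, 12.5 and 13.2 FPKM, 2.21, 2.82 and 1.91 and 4.55, 6.31, 12.3 and 10.1 at the 3 stages. KD morulae were all just below the controls and the other stages overlap, and none passed (-0.26, -0.40 and -0.20; adjusted p = 0.847, 0.148 and 0.626).

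Pgls, the lactonase that follows, was 0.168, 0.547, 0.883 and 1.73 FPKM in 2-cell controls, 9.23, 4.96, 4.87 and 4.87 in morulae and 17.5, 22.6, 23.8 and 20.6 in blastocysts. The stages are apart, and the changes were 1.87 (standard error 0.23, adjusted p = 1.88e-06) and 1.68 (standard error 0.23, adjusted p = 2.33e-05). Pgd, which releases carbon dioxide and the ribulose phosphate, rose to the morula with overlap, with 6.72 to 13.3 FPKM in 2-cell controls and 12.3 to 29.6 in morulae (0.86, standard error 0.23, adjusted p = 0.00296), and was 13.2 to 31.4 in blastocysts. KD blastocysts lay at 15.2 to 23.9 FPKM for Pgls and 21.2 to 55.1 for Pgd, with Pgd replicate 5 far above the others; neither gene passed.

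In the nonoxidative arm, Taldo1, transaldolase, was 24.9, 21.3, 44.2 and 41.5 FPKM in 2-cell controls, 138, 164, 129 and 142 in morulae and 129.7, 164, 152 and 145 in blastocysts. It rose in every library to the morula (1.98, standard error 0.18, adjusted p = 9.12e-08) and then stayed within the same range (0.03). Tkt, transketolase, was 0.102, 0.104, 0.698 and 0.595 FPKM in 2-cell controls, 6.42, 3.28, 6.72 and 6.72 in morulae and 5.91, 9.88, 14.9 and 10.9 in blastocysts. Its rise to the morula was 2.23 (standard error 0.24, adjusted p = 5.41e-07); the further rise, 0.71 (standard error 0.24, adjusted p = 0.0252), was lost without morula control replicate 2 or blastocyst control replicate 5 or 6 (0.50 to 0.68, adjusted p from 0.0573 to 0.0944), with a pseudocount of 0.1 (0.80, adjusted p = 0.145) and without the filter (adjusted p = 0.0791). Rpe and Rpia, the epimerase and isomerase of the pentose phosphates, did not pass between stages, with control ranges of 13.8 to 21.2, 22.0 to 28.3 and 24.2 to 32.8 FPKM for Rpe and 1.12 to 2.00, 0.868 to 1.88 and 0.844 to 2.44 for Rpia. With FPKM as deposited, limma did call Rpe higher from 2-cell embryos to morulae (0.45, adjusted p = 0.0198). None of the 4 genes passed between KD and control; in KD blastocysts their means were 132 ± 21.4 (SD, n = 4) FPKM for Taldo1, 7.24 ± 3.11 (SD, n = 4) for Tkt, 25.9 ± 1.68 (SD, n = 4) for Rpe and 0.851 ± 0.218 (SD, n = 4) for Rpia. Across all 15 pathway genes that were tested and did not pass in blastocysts, log2 fold changes ran from -0.46 (Tkt) to 0.43 (Pgd), and across the 22 in morulae from -0.70 (Pgk1) to 0.48 (Ldhb).

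Replicate numbers fall into a lower and a higher range at each stage, and the KD effects were recomputed within each as differences of mean log2 values. In blastocysts, where the lower range is replicate 1 alone in each group, the effect was -1.84 in the lower and -1.69 in the higher range for Pgk1. For Tpi1 it was -2.68 and -1.12, for Eno3 -1.92 and -1.07, and for Pgm2 -1.40 and -0.98. For these 4 DEGs every KD blastocyst lay below every control, so a negative sign in both ranges was fixed beforehand and adds nothing. The more negative value was in replicate 1, which is a single library in each group. For Gapdh the effects were -1.22 and -0.57, and for Pgam1 0.83 and 0.36. Eno1 in morulae gave -1.04 among replicates 1 and 2 and -0.80 among the higher numbers, where KD has 1 library. At the 2-cell stage, effects of the 20 genes tested had both signs within each range. They ran from -0.92 (Pgd) to 0.78 (Taldo1) in the lower range. In the higher range, where KD again has 1 library, they ran from -1.08 (Tpi1) to 0.44 (Pgk1).

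Isoenzyme shares, the percentage of a family's summed FPKM that 1 gene holds, do not depend on scaling between libraries. They were tested by an exact permutation test over libraries, counting both directions, in 15 combinations of family and stage whose summed FPKM was at least 1 in every library; 3 combinations were not tested. After adjustment 0 passed, and 4 had an unadjusted exact p of 0.0286, the smallest that 4 against 4 or 3 against 4 libraries allow (adjusted p = 0.107), all in blastocysts. With that floor, a share that separated the groups fully could not pass on its own after adjustment over 15 combinations. The absence of passing shares therefore does not show that shares were equal. Pfkfb3 held 0.636, 1.22, 0.382 and 1.21% of its family in control and 8.09, 5.51, 4.54 and 5.25% in KD blastocysts. Every KD share was above every control share, at FPKM of at most 0.263. Eno1 held 85.3, 90.5, 94.4 and 93.8% of the enolases in control and 96.3, 95.7, 95.5 and 96.7% in KD blastocysts, a higher share where Eno3 was lower. Hk2 held a mean of 99.8% of the hexokinases in control and 97.9% in KD blastocysts, where replicate 5 held 94.4% and the others 98.8 to 99.5%; the difference of -1.89 points was -0.718 without that library. For Eno1 the difference of 5.09 points was 3.20 without control replicate 1. Aldoa held more than 99% of the aldolases in both groups.

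Several of these genes share sequence with processed copies elsewhere, which bears on how reads are assigned. Among windows of 75 bases of the annotated transcripts, 52.8% of those of Pgk1 also occur in another gene (mainly Pgk1-rs7), 34.9% of Pgam1 (Pgam1-ps2), 23.0% of Eno1 (mainly Eno1b) and 22.6% of Gapdh (118 genes). The share was 1.35% for Tpi1 and 0 for Eno3, Pgm2, Hk2, Bpgm and Fbp2. For 5 genes picked after their values were seen, the FPKM of the copies was added. Pgk1 with its copies summed to 52.1 to 66.7 FPKM in control and 12.4 to 18.5 in KD blastocysts, and Tpi1 to 54.1 to 92.5 and 13.3 to 35.5, without overlap. Eno1 with its copies was 18.4 to 30.9 FPKM in control and 9.08 to 15.3 in KD morulae. Gapdh with its copies was 263 to 434 FPKM in control and 112 to 301 in KD blastocysts, and Pgam1 75.7 to 124 and 95.5 to 176, with overlap for both. Part of the level of a copy may be reads of its parent, which these values cannot separate.

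By position on GRCm38, chromosome 6 carries 7 of the 34 genes (Hk2, Tpi1, Gapdh, Eno2, Ldhb, Bpgm and Rpia) and chromosome X carries 3 (Pgk1, G6pdx and Pfkfb1). Eno2, Tpi1 and Gapdh lie between 124760053 and 125166467 on chromosome 6, where Tpi1 and Gapdh were lower in KD blastocysts and Eno2 stayed under 1 FPKM. Ldha (46841475 to 46855627) and Ldhc (46861203 to 46878142) are adjacent on chromosome 7 and both fell from the 2-cell stage to the morula.

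All 34 genes have a promoter entry in RefSeq (build GRCm38.p6), from which the 250 bases before the start were searched for ACGTG and GCGTG on both strands, the core letters bound by hypoxia-inducible factors; the palindrome CACGTG contains ACGTG. At least 1 match was found for 29 of the 34 genes, and for 41.5% of all 27025 genes with an entry. A gene with more entries is more likely to match. By entry, 73.6% of 53 entries of the pathway genes and 38.6% of all 32851 entries had a match. Both motifs contain CG, and the background was not matched for CG content or for expression, so the shares do not show an enrichment. The motif was picked after the expression values were seen, and a match is a description of letters only. The promoters of the DEGs that were lower in KD blastocysts are shown because these genes had the largest KD changes among the pathway genes there, limited to those whose window lies outside the annotated gene; the window of Tpi1 overlaps its gene and holds 0 matches. Capitals mark the matches in Pgk1 (chrX:106186850-106187099, plus strand, 2 matches), Eno3 (chr11:70656926-70657175, plus strand, 1 match) and Pgm2 (chr5:64092689-64092938, plus strand, 1 match).
Pgk1: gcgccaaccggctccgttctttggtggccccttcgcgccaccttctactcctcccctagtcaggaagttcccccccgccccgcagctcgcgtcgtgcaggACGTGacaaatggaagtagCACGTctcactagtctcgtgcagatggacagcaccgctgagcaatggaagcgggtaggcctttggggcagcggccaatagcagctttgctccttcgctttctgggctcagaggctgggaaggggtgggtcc
Eno3: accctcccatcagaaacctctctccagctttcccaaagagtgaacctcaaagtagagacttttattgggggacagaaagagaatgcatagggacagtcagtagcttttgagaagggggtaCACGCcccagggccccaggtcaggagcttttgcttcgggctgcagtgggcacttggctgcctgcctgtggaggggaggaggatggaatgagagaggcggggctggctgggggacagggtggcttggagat
Pgm2: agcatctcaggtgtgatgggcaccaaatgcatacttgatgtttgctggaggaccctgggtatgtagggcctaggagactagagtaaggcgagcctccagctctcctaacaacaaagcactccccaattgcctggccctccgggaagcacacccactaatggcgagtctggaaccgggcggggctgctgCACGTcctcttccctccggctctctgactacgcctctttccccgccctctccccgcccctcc

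Enzymes at the side of the pathway were followed as a list of 32 genes. In morulae, 14 were tested, with 1 higher and 1 lower in KD (beside 4.22% and 9.05% of all genes; median -0.20); in blastocysts, 5 of 14 were higher and 3 lower (beside 16.7% and 19.8% of all genes; median 0.33, beside 0.00 for all genes). Gpd1l, related to the glycerol phosphate dehydrogenases, measured 319, 255, 285 and 291 FPKM in control and 157, 156 and 193 in KD morulae, and 21.5, 33.4, 49.6 and 39.6 in control and 136, 87.5, 169 and 107 in KD blastocysts. KD was below every control in morulae and above every control in blastocysts (-0.64, standard error 0.15, adjusted p = 0.0194 in morulae; 1.79, standard error 0.22, adjusted p = 0.000125 in blastocysts). The interaction was 2.40 (standard error 0.29, adjusted p = 0.000127). Galm, which turns the sugar ring before hexokinase, was 2.22, 2.88, 3.26 and 2.83 FPKM in control and 0.805, 0.454, 0.495 and 0.850 in KD blastocysts, without overlap (-1.19, standard error 0.16, adjusted p = 0.000172; -1.97 with a pseudocount of 0.1). Galm, 1 of the 3 lower genes, was tested only through the control libraries, which favoured a fall, and Prps2, 1 of the 5 higher, met the minimum only through KD libraries (3 KD and 1 control), which favoured a rise. Tigar, a phosphatase that lowers the regulatory fructose bisphosphate, was 53.6, 63.7, 53.6 and 57.0 FPKM in control and 97.7, 93.4, 77.7 and 76.8 in KD blastocysts, all KD values higher (0.59, standard error 0.17, adjusted p = 0.0171). Rbks, ribokinase, was at 3.25 to 4.15 FPKM in KD against 4.73 to 6.62 in control blastocysts (-0.60, standard error 0.18, adjusted p = 0.0192), and the muscle mutase Pgam2 at 20.9 to 37.3 against 7.23 to 13.6 in morulae (1.40, standard error 0.22, adjusted p = 0.00512). The morula call of Gpd1l was lost without control replicate 8 or KD replicate 1 or 2 (-0.60 to -0.56, adjusted p from 0.0523 to 0.0927), and the call of Rbks without control replicate 6 or KD replicate 6 (both -0.58, adjusted p = 0.0507 and 0.0513).

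Among 25 genes of glucose, lactate and pyruvate transport and of pyruvate dehydrogenase, 14 were tested in morulae. Of these 0 were higher in KD (4.22% of all genes), where limma gave an unadjusted p under 0.05 for 3 (12.8% of all genes), and 1 was lower (9.05% of all genes; median -0.23) and of 14 tested in blastocysts 4 were higher and 2 lower (16.7% and 19.8% of all genes; median 0.03). Dlat, the core subunit of pyruvate dehydrogenase, was 7.68, 5.80, 5.07 and 5.499 FPKM in control and 2.53, 1.91 and 3.17 in KD morulae, without overlap (-0.89, standard error 0.18, adjusted p = 0.0115; without KD replicate 2, -0.76, adjusted p = 0.0573). Dld, its dehydrogenase subunit, was 65.7, 68.9, 64.8 and 66.2 FPKM in control and 33.8, 44.7, 40.3 and 42.6 in KD blastocysts, with all KD values lower (-0.70, standard error 0.15, adjusted p = 0.00388). Pdp2, a phosphatase that activates the complex, was 6.31, 9.51, 13.6 and 10.1 and 19.0, 14.6, 21.8 and 15.0 FPKM in the same libraries (0.81, standard error 0.19, adjusted p = 0.00665). Bsg, the partner of the lactate transporters, was 182 to 374 FPKM in control and 413 to 521 in KD blastocysts (0.63, standard error 0.19, adjusted p = 0.0203; without KD replicate 1, 0.58, adjusted p = 0.0523). Mpc2 of the mitochondrial pyruvate carrier (0.50, adjusted p = 0.0322) and Pdhx of the dehydrogenase complex (-0.44, adjusted p = 0.0367) passed without overlap between groups. Mpc2 lost its call without control replicate 4, 5 or 6 or KD replicate 1 or 6 (0.42 to 0.50, adjusted p from 0.0702 to 0.105), and Pdhx without control replicate 4, 5 or 6 or KD replicate 1, 5 or 6 (-0.48 to -0.39, adjusted p from 0.0562 to 0.0940). Slc2a8, a glucose transporter, was also among the 4 genes that passed as higher in KD blastocysts. The glucose transporters Slc2a1 and Slc2a3, at 4.74 to 20.3 and 6.12 to 40.7 FPKM in control and 7.88 to 16.9 and 9.90 to 31.4 in KD blastocysts, overlapped. Slc2a1 and Slc2a3 were named after their values were seen.

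Of 20 regulators of the pathway, 15 were tested in morulae (1 higher, 1 lower, beside 4.22% and 9.05% of all genes; median 0.10) and 17 in blastocysts (6 higher, 1 lower, beside 16.7% and 19.8%, where 2 of the 6, Egln3 and Prkaa2, were tested only through KD libraries and the lower gene, Mycn, met the minimum only through controls; median 0.35). Trp53, which encodes p53, was 12.7, 22.8, 39.9 and 28.4 FPKM in control and 49.5, 48.5, 75.9 and 53.8 in KD blastocysts, all KD values higher (1.19, standard error 0.25, adjusted p = 0.00279). Prkaa1, a catalytic subunit of the energy sensor AMPK, was 9.05, 9.85, 10.4 and 10.6 and 21.0, 18.2, 24.9 and 21.8 FPKM, again without overlap (1.03, standard error 0.15, adjusted p = 0.000262). Egln3, a prolyl hydroxylase that marks hypoxia-inducible factor for removal, was 0.153, 0.278, 0.281 and 0.204 FPKM in control and 0.583, 1.26, 2.32 and 1.70 in KD blastocysts (0.95, standard error 0.19, adjusted p = 0.00239; 2.14 with a pseudocount of 0.1). In blastocysts it was tested only through 3 KD libraries, which favoured a rise. It was higher in KD morulae too, at 2.04, 1.81 and 2.01 against 1.26, 1.08, 0.903 and 0.723 FPKM (0.65, standard error 0.15, adjusted p = 0.0185; 1.05 with a pseudocount of 0.1), where 2 control and 3 KD libraries were at 1 FPKM or more, so that the filter favoured a rise there as well. Mlx, a partner of the glucose-sensing factor ChREBP, was 11.9 to 14.6 FPKM in KD and 19.8 to 24.3 in control morulae (-0.62, standard error 0.15, adjusted p = 0.0261). The morula calls were lost for Egln3 without control replicate 8 or KD replicate 1 or 2 (0.60 to 0.69, adjusted p from 0.0523 to 0.0612) and for Mlx without control replicate 2 or 8 or KD replicate 1 or 2 (-0.61 to -0.52, adjusted p from 0.0608 to 0.111). With replicate numbers as a block, limma also lost the morula call of Egln3 (0.52, adjusted p = 0.182). At the 2-cell stage limma called 0 genes of the 3 lists, with 2, 0 and 1 at an unadjusted p under 0.05, beside 5.76% of all genes. Without the filter, where more genes are tested, the morula calls of Pgam2, Gpd1l, Dlat, Mlx and Egln3 were lost (adjusted p = 0.0506, 0.0718, 0.0550, 0.0657 and 0.0516), as were those of Bsg and Mpc2 in blastocysts (adjusted p = 0.0686 and 0.0610). The call of Pdhx was lost with FPKM as deposited, quantile normalization and the replicate block (adjusted p from 0.0504 to 0.0506). The lists were not tested as sets.

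All p-values above come from limma or, for shares, from exact tests, and they describe 3 or 4 libraries a group. Differences smaller than the spread between libraries would not be detected, and a gene that did not pass is not shown to be unchanged.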

How the data were processed

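RNA of 22 libraries, each of 15 pooled mouse embryos, was measured, and the authors deposited FPKM from StringTie 2.1.4 after alignment with STAR. The FPKM were divided by a scale factor per library (median of ratios, centred to a geometric mean of 1) within each comparison, and log2(FPKM + 1) was fitted with limma 3.58.1 in R 4.3.3, with a trend in the prior variance, over all genes that passed the filter. Comparisons were KD against control at each stage, control stages in a single fit of 12 libraries, and the difference of the KD effects of blastocysts and morulae. Centring of the scale factors was compared in 3 forms by their counts of DEGs (387 in morulae and 1626 in blastocysts without centring, 395 and 1640 with the geometric mean, 396 and 1641 with the mean), and the geometric mean was adopted after these counts were seen. The procedure was tested on simulated data. Isoenzyme shares used exact permutations. Sequence windows and promoters were read with Python 3.11.15, and figures drawn with matplotlib 3.10.9.

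The pathway genes and the lists beside them were chosen with earlier results of these data known. Genes were named by rule: each pathway gene that passed, the rate-controlling enzymes, lactate dehydrogenases and Gapdh at every stage, and from each other list at most 3 genes a direction, by absolute log2 fold change, that passed and whose groups do not overlap. Alternatives covered the pseudocount, the filter, the scaling, the prior variance, covariates and each library left out. Numbers of reads were not available, so depth was only gauged from low values.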

Additional observations from a re-analysis of the deposited data

Results flagged for a closer look

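In 3 of 90 combinations of gene and group of 4 libraries, a single library lay far from the other 3, all among control morulae; chance alone marks about 1 in 20 groups. Gapdh was lowest in replicate 2, at 17.6 FPKM against 28.5 to 28.5 in the others. Tkt was lowest in the same library, at 3.28 FPKM against 6.42 to 6.72. Pgls was highest in replicate 1, at 9.23 FPKM against 4.87 to 4.96. The reason was not tested.

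The KD effect differed between blastocysts and morulae by the interaction test for 5 pathway genes: Tpi1 (-1.82), Eno3 (-1.34), Pgm2 (-1.26), Hk2 (-1.22) and Pgk1 (-1.06, log2 units), each more negative in blastocysts. For Hk2 the groups lay apart in opposite directions at the 2 stages. The Pgk1 difference did not pass without morula control replicate 1 or 2, morula KD replicate 1 or 6, blastocyst control replicate 1 or 4 or blastocyst KD replicate 5 (-1.10 to -0.90).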

How the results depend on the processing

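The 88 log2 fold changes of pathway, list and marker genes that passed and are named, or counted among trophectoderm genes, were recomputed under each alternative that applied, which gave 1585 values: 1483 kept their direction and passed, 102 kept their direction and no longer passed, and 0 changed direction. In blastocysts Tpi1, Pgk1, Eno3, Pgm2, Hk2, Bpgm and Pfkfb1 passed under each of 17 alternatives, while Gapdh did not under 7 and Pgam1 under 8. Eno1 in morulae did not under 5 of 16.

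The count in morulae (1, lower) was 0 without the filter, 2 with FPKM as deposited (Pgk1 added) and 3 with a covariate for the lower and higher replicate numbers (Hk2 higher, so 1 higher, and 2 lower). Leaving out single libraries gave 0 to 2: 0 without control replicate 7 or 8 or KD replicate 1 or 2, and 2 without control replicate 1, where Pgk1 passed. The count of higher genes in blastocysts (1, Pgam1) was 2 without the filter, where Pfkfb3 and Pfkfb4 passed and Pgam1 (adjusted p = 0.0720) and Gapdh (0.135) did not, and 0 with FPKM as deposited; leaving out single libraries gave 0 to 1, with 0 without control replicate 1, 4 or 6 or KD replicate 1, 5 or 6. The count of lower genes from morula to blastocyst (2) was 4 without the filter, where more genes are tested. Pfkfb3 was added to the lower genes of that step with a pseudocount of 0.1 (-1.59) and with quantile normalization (-0.41). The other causes were not tested.

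A pseudocount of 0.1 moved some low genes by more than 1.5 times: in morulae Egln3 to 1.05; in blastocysts Pfkfb1 to -1.02, Bpgm to -1.02, Galm to -1.97 and Egln3 to 2.14; from 2-cell to morula Hk2 to 3.11, Pfkfb2 to 2.24, Pfkfb3 to -2.26, Eno3 to 1.42, Ldhc to -4.49, Pgls to 2.82 and Tkt to 3.75; and from morula to blastocyst Ldhb to -2.19, Bpgm to 1.00 and Pgm1 to 5.19. Among markers in blastocysts, Zfp352 moved to 2.88, Elf5 to -3.08 and Hba-a2 to 1.11, and Cdx2 from morula to blastocyst to 0.75. Over all genes, the number of DEGs rose with this pseudocount from 395 to 790 in morulae and from 1640 to 2479 in blastocysts. Testing with no filter gave 171 and 1462. Without the filter Nanog, Hba-a1 and Hba-a2 in morulae (adjusted p = 0.0718, 0.110 and 0.110), Klf4 and Hba-a2 in blastocysts (0.0783 and 0.0887), Eno3 from 2-cell to morula (0.0542) and the Pgk1 interaction (0.0912) did not pass, while Hk1 (0.19), Pfkfb4 (0.76) and Eno2 (0.39) passed from 2-cell to morula and Hk1 (-0.23) and Pfkfb4 (-0.56) from morula to blastocyst; in KD blastocysts Pfkfb3 (0.21), Pfkfb4 (0.41) and Ldhc (-0.27) passed as well. Pgm2 from 2-cell to morula did not pass with FPKM as deposited (-0.54) or quantile normalization (-0.42). For the same step Rpe (0.45) passed with FPKM as deposited, and Gpi1 (0.75) and Pfkfb1 (0.36) with quantile normalization. From morula to blastocyst, Pfkfb1 passed with FPKM as deposited (0.39) and without 2-cell control replicate 2 (0.37). FPKM as deposited shifted the median of all genes by -0.11 in morulae (15.3% of genes that passed were higher, against 31.8%), by 0.13 from 2-cell to morula and by 0.13 in the interaction (56.0% against 46.3%); quantile normalization shifted it by 0.17 from 2-cell to morula. Leaving out a control library kept the filter at 4 libraries, so Ldhc and Pfkfb3 (without a 2-cell library) and Pgm1 (without a blastocyst library) were not tested there. With a 2-cell control library left out, 12041 to 12062 genes were tested from 2-cell to morula. The median of all genes was then 0.35 to 0.38, where the main fit of 13883 genes gave 0.08.

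Both added forms of the scale factors, uncentred and with a mean of 1, were chosen after seeing the data, and the same pathway genes passed in each comparison. The replicate numbers were also tried as a block, although at no stage did all pairs of libraries of equal number correlate above the limit of 0.1 set for pairing; with the block the counts of pathway genes that passed were 0 (2-cell), 1 (morula) and 9 (blastocyst), while of the genes named beside them Egln3 in morulae (0.52, adjusted p = 0.182) and Pdhx in blastocysts (-0.44, adjusted p = 0.0504) did not pass with the block.

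Among differences of isoenzyme shares, none of which passed after adjustment, the sign of 6 of 15 depended on single libraries. Leaving out each in turn gave, in percentage points, -6.31 to 3.04 for Pfkfb3 in 2-cell embryos, -0.118 to 1.34 for Aldoa in 2-cell embryos and -0.121 to 0.0335 in morulae, -0.398 to 3.56 for Eno1 in 2-cell embryos, and -6.35 to 2.43 for Ldha in morulae and -1.30 to 0.311 in blastocysts. As a log2 ratio to the rest of the family, Eno1 in 2-cell embryos was -0.02 (-0.0208). The cause was not tested.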
